A study of Homo sapiens with 3 samples.

Results

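The mRNAs described here encode the proteins of the large (60S) subunit of the cytoplasmic ribosome. They were listed by gene symbol, 44 in all, without RPL37A, whose values lie far from the others and are given only for comparison. Of the 44, 43 had a row among the 36817 gene identifiers of the count tables. RPL36A had none and is described only from the peak lists. The libraries came from MOLM-13, an established human acute myeloid leukemia cell line in suspension culture, with no genetic change or drug named in the labels. There were 2 libraries of RNA recovered with an antibody against DDX6 after UV crosslinking (the DDX6 IP) and, to set them against, 1 input library of the same line, for which the labels name no antibody. The labels do not say whether the 2 IP libraries came from separate cultures, so the p-values here rest on a spread that could be purely technical.

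DDX6 is a DEAD-box RNA helicase that takes part in translational repression and mRNA decapping and is a core component of P-bodies, cytoplasmic granules of RNA and protein. Enhanced CLIP (eCLIP) crosslinks proteins to RNA, trims the RNA, immunoprecipitates one protein and sequences the RNA fragments bound to it, and the input shows which fragments were present before the antibody was used. Ribosomal protein mRNAs are short, very abundant and translated by many ribosomes in growing cells. Most carry a 5′ terminal oligopyrimidine (TOP) sequence, a cytosine at the very start of the mRNA followed by a run of pyrimidines, through which their translation is switched off when mTOR signalling falls.

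The starts of the mRNAs are shown first because the TOP sequence is the feature these genes are known to share. A motif was counted where the annotated first base was C and each of the 4 bases after it was C or T, on the transcript strand and at that position only. The RefSeq promoter table (GRCh38.p14) matched 37 of the 44 genes. Of these, 27 (73.0%) had at least 1 annotated start with the motif, against 5.14% of all 27305 genes in that table. The genes RPL5, RPL7, RPL8, RPL23, RPL23A, RPL30 and RPL37 were not matched. Each window below runs from 10 bases before the start to the 20th base of the transcript, 5′ to 3′, and capitals mark the initial C with its unbroken run of pyrimidines.
RPL36, the member with the highest fold in the IP (chr19:5690285-5690314, plus strand): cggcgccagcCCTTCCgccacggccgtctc
RPLP0, the stalk protein whose 3′UTR was higher in the IP (chr12:120201092-120201121, minus strand): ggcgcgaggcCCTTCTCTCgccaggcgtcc
RPL41, with one of the largest differences between coding sequence and 3′UTR (chr12:56116623-56116652, plus strand): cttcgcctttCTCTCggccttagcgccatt
RPL13A, the member called the opposite way in that comparison (chr19:49487598-49487627, plus strand): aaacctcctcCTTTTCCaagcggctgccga
RPL31, among the lowest members (chr2:101002279-101002308, plus strand): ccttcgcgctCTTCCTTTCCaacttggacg
RPL39, with the longest run, 19 bases (chrX:119791611-119791640, minus strand): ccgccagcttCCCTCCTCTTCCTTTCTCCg
RPL4, whose only annotated start there had no motif (chr15:66504836-66504865, minus strand): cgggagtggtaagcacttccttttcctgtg
A window without the motif says only that these letters do not stand at that annotated start. In RPL4 a pyrimidine run lies a few bases further in.

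The IP libraries held 4643494 and 1244213 counted reads and the input 7807540. Exonic reads made up 67.6% and 62.6% of the IP libraries and 30.7% of the input. Of 11 myeloid marker genes, 10 had at least 10 exonic reads in the input, whereas 7 of 8 markers of other blood lineages had 0 reads in it. The members together held 53344 and 13582 exonic reads in the IP libraries and 58992 in the input. That was 1.70% (95% exact binomial interval 1.68 to 1.71%) and 1.74% (1.72 to 1.77%) of exonic reads in the IP libraries, against 2.46% (2.44 to 2.48%) in the input. The intervals cover counting error only. With all counted reads as the total the order turned round, to 1.15% and 1.09% in the IP libraries against 0.756% in the input, in libraries whose exonic shares differ as given above.

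Counted over whole genes, the members were lower in the DDX6 IP or not called, and none was higher. The list leaves out RPL37A, also a large-subunit mRNA, which was called higher at a log2 fold of 3.81. That 0 therefore holds for the members and not for all large-subunit mRNAs. Of 43 members, 20 were lower (46.5%), 0 were higher and 23 were not called, where a call is an adjusted p under 0.05 in edgeR's quasi-likelihood test over 10392 genes. At an unadjusted p under 0.05 the members higher were still 0, and DESeq2 also called 0 higher. Over all genes tested, 11.4% were lower and 16.7% were higher. The median log2 fold of IP over input was -0.59 for the members and 0.00 for all genes tested. Every one of the 20 lower members was below the input in both IP libraries, and their folds ran from 1.63-fold to 4.54-fold lower, 12 of them at least 2-fold. The scale is relative to the typical gene. With library size alone as the scaling, 19 members were higher and 2 lower, where 67.3% and 1.36% of all genes were. The median of all genes tested then moved by 1.24. With intronic reads included, 15 members were higher and 9 lower, where 19.6% and 18.6% of all genes were. The members' median was then 0.27 against 0.02 for all genes, so their place relative to the typical gene turned round. The 20 lower calls fell to 12 with DESeq2 and to 12 with no filter on low reads, where 2.44% and 3.58% of all genes were lower.

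The lowest fold belonged to RPL32, a large-subunit protein whose exonic reads in the input were the most of any member. Of those 4853 reads, 3088 were 5′UTR reads, in a region partly annotated to the small nucleolar RNA SNORA7A as well. The level of RPL32 was 471 and 497 TMM-scaled CPM (reads relative to library depth) in the IP libraries against 2195 CPM in the input. Both IP libraries were far below the input, with a log2 fold of -2.18 (SE 0.30, adjusted p 2.74e-08). With its 5′UTR reads left out the log2 fold was -1.22, still called lower. RPL17, which lines the wall of the tunnel through which the new peptide leaves the ribosome, followed at 68.7 and 49.2 CPM in the IP libraries against 234 CPM in the input (log2 fold -1.93, SE 0.25, adjusted p 3.26e-09). That row stands for little of the mRNA, since 219 of 220 and 39 of 39 reads in the IP libraries and 516 of 517 in the input were 5′UTR reads. The authors' peak list of IP replicate 1 had 5 RPL17 5′UTR lines, with a median log2 fold of 2.20. That of IP replicate 2 had 3, with a median of 2.37. Thus the median of these lines lay above the input, unlike the count row. In IP replicate 1, 2 of the 5 lines were also annotated to the small nucleolar RNA SNORD58B, at log2 folds of -1.30 and -1.24. The part of that RNA in the RPL17 counts was not tested.

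RPL31, a protein at the rim of the tunnel exit, had 94.6 and 106 CPM in the IP libraries and 297 CPM in the input, a log2 fold of -1.58 (SE 0.24, adjusted p 2.06e-07). RPL22, another rim protein, had 132 and 107 CPM in the IP libraries and 307 CPM in the input, a log2 fold of -1.34 (SE 0.24, adjusted p 6.57e-06). In both genes the IP libraries lay close together and well below the input. RPL7 was also lower, at 334 and 154 CPM in the IP libraries against 678 CPM in the input (log2 fold -1.43, SE 0.27, adjusted p 2.51e-05), but its 2 IP libraries differed by 1.11 on the log2 scale, the widest gap of any member, and it was not called with DESeq2. RPL9 had 217 and 143 CPM in the IP libraries and 437 CPM in the input (log2 fold -1.25, SE 0.25, adjusted p 4.58e-05).

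At the other end no member passed the test. RPL36 had 445 and 515 CPM in the IP libraries and 412 CPM in the input, a log2 fold of 0.22 (SE 0.27, adjusted p 0.60). RPLP0, the backbone protein of the P stalk that recruits elongation factors, had 683 and 891 CPM in the IP libraries and 731 CPM in the input, so that the input lay between them. RPL19, at the tunnel exit, had 596 and 635 CPM in the IP libraries and 586 CPM in the input. RPL23A, RPL5 and RPL14 followed with log2 folds of -0.05, -0.05 and -0.05, and in each of these 3 genes IP replicate 1 lay above the input and IP replicate 2 below it. Of all 43 members, 36 were below the input in both IP libraries, 2 were above it in both, and 5 had opposite signs, where 40.8% of all genes tested were below the input in both and 41.7% above it in both. The 2 IP libraries differed by a median of 0.26 on the log2 scale.

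**Figure D1:**
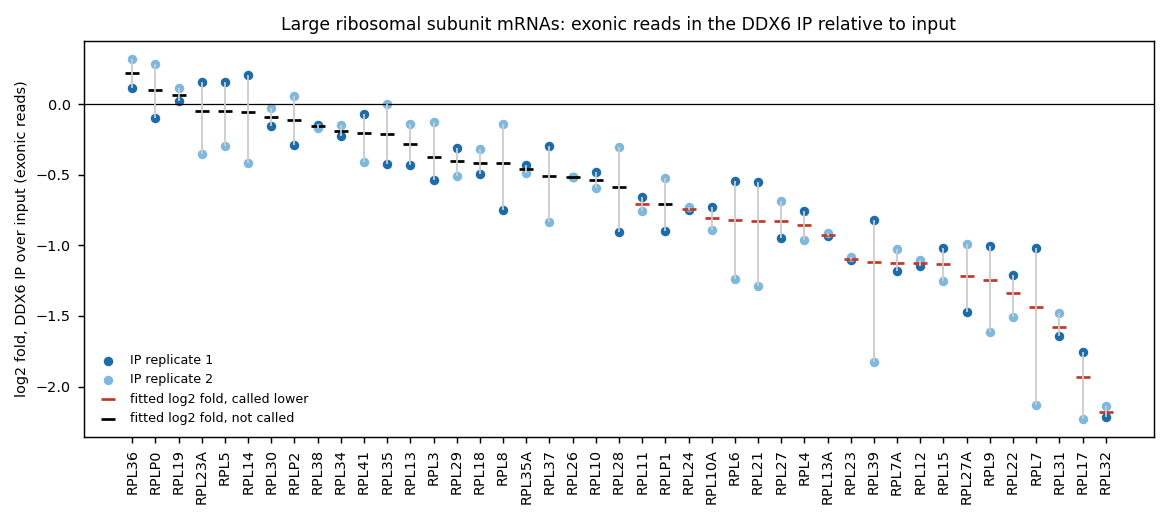
Log2 fold of exonic reads, DDX6 IP over input, for the 43 members with counts, ordered by the fitted fold. Points are the 2 IP libraries, each against the same input, and dashes are the fitted folds, red where the member was called lower; the 20 called members run from RPL11 at -0.71 to RPL32 at -2.18.

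Grouped by role, the members of the tunnel wall were all lower: RPL4 (log2 fold -0.85), RPL17 (-1.93) and RPL39 (-1.12), the last on 117 and 14 reads in the IP libraries and 144 in the input. RPL39 was not called with DESeq2, RPL4 was not called with no filter on low reads, and the RPL17 row holds almost only 5′UTR reads. Of the 6 proteins at the tunnel exit (RPL19, RPL22, RPL23A, RPL31, RPL35 and RPL38), 2 were lower. Of the P stalk and its base (RPLP0, RPLP1, RPLP2 and RPL12), 1 was lower, RPL12, at 248 and 254.9 CPM in the IP libraries against 549 CPM in the input (log2 fold -1.13, SE 0.25, adjusted p 0.00029). RPLP1 had a log2 fold of -0.71 and missed the threshold at an adjusted p of 0.051.

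Of the 4 listed proteins that bind the ubiquitin ligase MDM2 when ribosome assembly fails, 2 were lower. RPL11, which joins 5S rRNA with RPL5 before both enter the subunit, was lower at 460 and 429 CPM in the IP libraries against 726 CPM in the input (log2 fold -0.71, SE 0.27, adjusted p 0.043), a call that was lost with RLE size factors, with DESeq2 and with no filter on low reads. RPL5 was not called, at 971 and 710 CPM in the IP libraries and 872 CPM in the input, which lay between them. RPL23 was lower (log2 fold -1.09), and RPL26 was not called (-0.51). Of the genes mutated in Diamond-Blackfan anemia that were listed here (RPL5, RPL11, RPL15, RPL26 and RPL35A), RPL11 and RPL15 were lower, RPL15 at a log2 fold of -1.13.

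RPL13A, known for its release from the ribosome to repress inflammatory mRNAs in monocytes, had 1011 and 1025 CPM in the IP libraries and 1933 CPM in the input, a log2 fold of -0.93 (SE 0.32, adjusted p 0.021), which was not called with no filter on low reads. Of the 2 proteins that join the subunit late in its maturation, RPL24 was lower (log2 fold -0.74, not called with DESeq2 or with no filter on low reads) and RPL10 was not called (-0.54). RPL41, the smallest ribosomal protein, was not called (-0.21), and neither was RPL8 (-0.41), which had 885 and 1350 CPM in the IP libraries and 1486 CPM in the input.

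The median log2 fold was -0.53 for the 26 members in the fit with a TOP motif at an annotated start, 10 of them lower, and -0.84 for the 10 without one, 8 of them lower. These 2 sets were not tested against each other. Other translation genes were read beside the members. Of 30 small-subunit mRNAs, 9 were lower and 0 higher, with a median of -0.38, and of 20 other TOP mRNAs, 5 were lower and 0 higher, with a median of -0.37. RPL37A stood apart in the other direction, at 11125 and 11243 CPM in the IP libraries against 798 CPM in the input, a log2 fold of 3.81 (SE 0.50, adjusted p 5.15e-09). Reads of large-subunit pseudogenes, which can share sequence with the members, came to 2.46% and 3.63% of the members' exonic reads in the IP libraries and 1.64% in the input. How the counting placed reads that match several loci is not given in the sources used here. A member's level is therefore uncertain to an extent that these shares do not measure.

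Most reads of these mRNAs were in coding sequence, and more so in the IP. Of the members' mRNA exonic reads, 86.2% and 83.0% were coding in the IP libraries against 75.2% in the input. The 3′UTR share was 7.32% and 6.94% in the IP libraries against 10.6% in the input, and the 5′UTR share 6.43% and 10.04% in the IP libraries against 14.2% in the input. The 5′UTR share rests on 2 genes: without RPL27A and RPL32, a choice made after their values were seen, it was 5.83% and 8.16% in the IP libraries and 6.90% in the input, which then lay between them. The pooled coding share depends on the same genes in part. Without them it was 86.7% and 84.7% in the IP libraries against 81.6% in the input, a smaller gap in the same direction. The coding share of a gene was above the input in both IP libraries for 29 of 43 members and below it in both for 3. That is near the 68.8% and 10.3% of protein-coding genes in the same fit. The 3′UTR share was below the input in both for 31 members and above it in both for 4, where 69.5% and 10.3% of protein-coding genes were. In the pooled reads of the other protein-coding genes, coding sequence held 56.0% and 57.7% of mRNA exonic reads in the IP libraries and 43.9% in the input.

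Each region was then tested on its own in a fit of 28825 gene regions, with CPM relative to exonic and intronic reads together. In the coding sequence, 42 members were tested, 4 were higher, 3 were lower and 35 were not called, where 51.2% of all 8169 coding regions were higher and 0.208% lower. The members' median log2 fold was 0.18 and that of all coding regions 1.02. The fit was also run on exonic rows alone, an alternative chosen after seeing the data. The members' coding median then turned to -0.55 and that of all coding regions to 0.28. In that fit 1 member was higher and 15 lower, where 19.1% and 2.74% of all coding regions were. The direction of the coding median therefore changes with the scaling, while the members' median was the lower of the 2 under both.

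RPL37, a small zinc-binding protein of the subunit, had the highest coding fold. Its coding sequence had 84.2 and 46.1 CPM (415 and 59 reads) in the IP libraries and 15.4 CPM (81 reads) in the input, a log2 fold of 2.12 (SE 0.37, adjusted p 4.37e-08). Over the whole gene RPL37 was not called, at 613 and 104 exonic reads in the IP libraries and 519 in the input (log2 fold -0.51). RPL41 came next, at 93.5 and 71.1 CPM in the IP libraries and 40.8 CPM in the input (log2 fold 1.03, SE 0.33, adjusted p 0.0042), and was not called with DESeq2, with no filter on low reads or on exonic rows alone. RPL23A (log2 fold 0.87) and RPL36 (0.84) were the other 2 higher coding regions, and neither was called on exonic rows alone. RPL39 had a log2 fold of 0.97 on 28 and 7 reads in the IP libraries and 15 in the input and was not called. The 3 lower coding regions were those of RPL31 (log2 fold -0.80), RPL7 (-0.78) and RPL9 (-0.68), all near the threshold, with adjusted p of 0.022, 0.028 and 0.047, and with at least 30 reads required none of the members' coding regions was lower.

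In the 3′UTR, 37 members were tested, 18 were lower and 1 was higher, where 6.83% of all 7194 3′UTRs were lower and 23.9% higher. The median log2 fold was -0.90 for the members and 0.28 for all 3′UTRs. RPL27 had the lowest, with 22 and 2 reads in the IP libraries and 106 in the input (log2 fold -2.45, SE 0.47, adjusted p 7.93e-07). RPL32 had 28 and 6 reads in the IP libraries and 122 in the input (-2.10), and RPL41 43 and 4 reads in the IP libraries and 151 in the input (-2.03). In all 3, both IP libraries were below the input after scaling for depth. RPLP0 was the exception, with 33.7 and 29.7 CPM in the IP libraries and 15.05 CPM in the input (log2 fold 1.09, SE 0.38, adjusted p 0.0090). With DESeq2 the lower 3′UTRs numbered 6 and the higher 0, where 0.917% and 10.4% of all 3′UTRs were lower and higher. On exonic rows alone 27 were lower and 0 higher, where 22.9% and 7.30% of all 3′UTRs were. RPL19 (0.70) and RPL5 (0.66) came after RPLP0 and were not called.

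In the 5′UTR, 31 members were tested, 3 were higher and 6 lower, where 33.2% of all 2025 5′UTRs were higher and 4.49% lower. With DESeq2, 1 was higher and 2 lower, where 13.7% and 0.395% of all 5′UTRs were. On exonic rows alone 1 was higher and 11 lower, where 13.2% and 9.04% of all 5′UTRs were. The median log2 fold was -0.19 for the members and 0.74 for all 5′UTRs, and the members' median was 0.29 without IP replicate 1 and -0.37 without IP replicate 2. In 24 of the 31, IP replicate 2 lay above IP replicate 1, as it did in 63.4% of all 5′UTRs tested. RPL30, whose counterpart in budding yeast binds its own transcript, had 19.7 and 50.03 CPM in the IP libraries and 8.76 CPM in the input (log2 fold 1.87, SE 0.41, adjusted p 2.18e-05). RPL29 had 39 and 7 reads in the IP libraries and 11 in the input (log2 fold 1.74), and RPL34 was the third higher one (0.82); neither was called on exonic rows alone. RPL36 had a log2 fold of 1.12 and was not called.

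The 2 lowest 5′UTRs lay where small nucleolar RNAs are also annotated. RPL32 had 253 and 148 5′UTR reads in the IP libraries and 3088 in the input, a log2 fold of -2.87 (SE 0.33, adjusted p 2.18e-15). RPL27A had 246 and 182 in the IP libraries and 1743 in the input, a log2 fold of -1.85 (SE 0.32, adjusted p 4.42e-08), which was not called with DESeq2. In the authors' peak list of IP replicate 1, 5 RPL32 5′UTR lines from 12881837 to 12881948 on chromosome 3 (hg19) were also annotated to SNORA7A, and 4 RPL27A 5′UTR lines from 8705774 to 8705892 on chromosome 11 to SNORA3A. The part of the small nucleolar RNAs in these counts was not tested. The coding sequences of the same genes were not called, at log2 folds of -0.51 for RPL32 and 0.48 for RPL27A. At the level of the gene, RPL27A was lower (log2 fold -1.22) with its 5′UTR reads and not called without them (-0.37). RPL7 was the third lowest 5′UTR (-1.81), on 12 and 2 reads in the IP libraries and 41 in the input.

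Introns of the members were lower in the IP in 34 of 42 tested genes and higher in 0 by edgeR, adjusted or not, where 83% of all 9153 intron rows were lower.

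**Figure D2:**
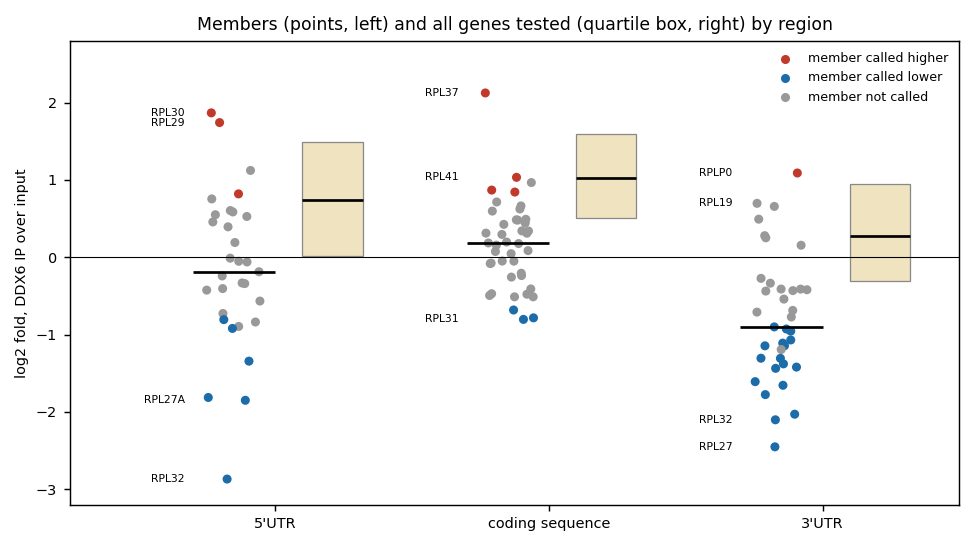
Log2 fold of IP over input by region: points are the members tested (31, 42 and 37), coloured by call, with a bar at their median, and boxes span the quartiles of all genes tested in the same region, with a bar at the median. The members' medians, -0.19, 0.18 and -0.90, lie below those of all genes, 0.74, 1.02 and 0.28, in each of the 3 regions.

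Within the same mRNA, the coding sequence gained on the 3′UTR in the IP for most members. In a fit of the difference between the 2 regions, which share one scaling and so do not depend on it, 21 of 37 members had a higher coding sequence and 1 a higher 3′UTR, where 29.7% and 0.717% of all 6552 genes tested did. The median difference was 1.07 on the log2 scale for the members and 0.82 for all genes, and it was above 0 in 33 of the 37 members and in 5690 of the 6552 genes. All 21 called members were above 0 in both IP libraries. With DESeq2, 7 members had a higher coding sequence, where 2.88% of all genes did. With at least 30 reads per region, 13 of 29 members did, where 43.3% of all genes did, and the medians were 0.84 for the members and 0.84 for all genes.

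RPL37 had the largest difference, 3.30 (SE 0.34, adjusted p 1.11e-18). Coding sequence held 67.7% and 56.7% of its mRNA exonic reads in the IP libraries against 15.6% in the input, and the 3′UTR held 31.6% and 43.3% against 84.2%. Its 3′UTR alone was lower, at 39.4 and 35.2 CPM in the IP libraries and 83.2 CPM in the input (log2 fold -1.14). RPL41 followed with a difference of 3.11 (SE 0.38, adjusted p 4.50e-13), and its coding share was 84.6% and 85.8% in the IP libraries against 54.3% in the input. RPL27 had a difference of 2.29 (SE 0.41), with coding shares of 94.9% and 96.4% in the IP libraries and 85.8% in the input. RPL39 (1.86), RPL29 (1.79) and RPL8 (1.74) came next. RPL37A had a difference of 4.08, which was the highest of all 6552 genes.

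RPL13A was the 1 member called the other way, with a difference of -0.77 (SE 0.30, adjusted p 0.039), a call that was lost with DESeq2. Its 3′UTR held 24.0% (776 of 3238 reads) and 26.7% (217 of 812) in the IP libraries and 16.5% (706 of 4274) in the input. The 3′UTR reads of RPL13A were thus near the input, at 157 and 170 CPM in the IP libraries and 134 CPM in the input, while its coding sequence was at 500 and 465 CPM against 680 CPM in the input. The authors' list of IP replicate 2 also annotates 1 of its 3′UTR lines to a long noncoding RNA. None of the 4 P-stalk members was called, RPLP0 at -0.42, RPLP1 at 0.29, RPLP2 at 0.16 and RPL12 at 0.31. RPL15, whose 3′UTR carried more reads than its coding sequence in every library, had a difference of 1.001, with coding shares of 46.3% and 46.1% in the IP libraries and 30.4% in the input. RPL22, whose 3′UTR carried more reads than its coding sequence in the input alone, had a difference of 1.49 and coding shares of 57.0% and 54.1% in the IP libraries against 32.5% in the input.

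**Figure D3:**
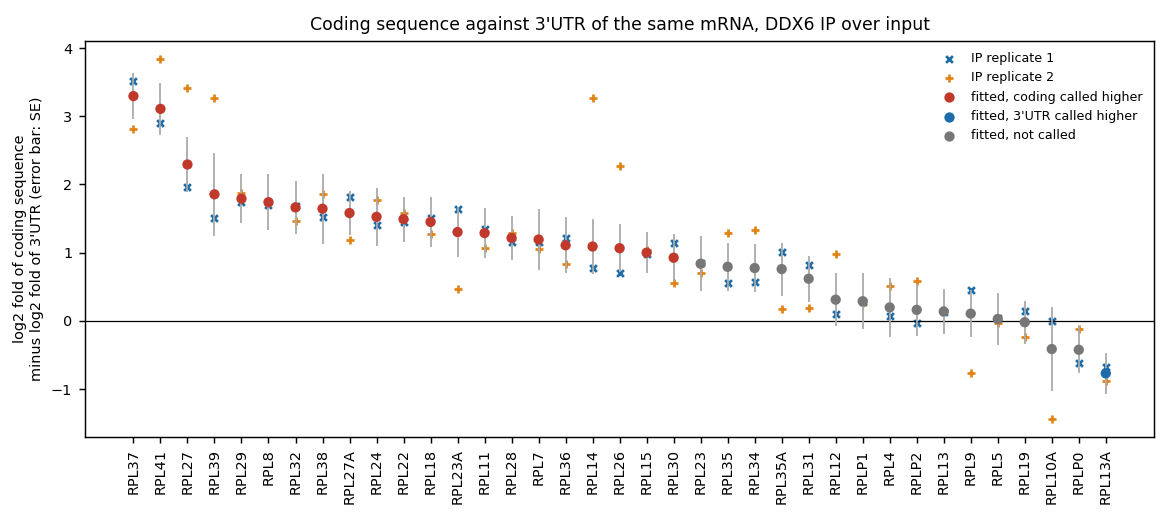
Log2 fold of the coding sequence minus that of the 3′UTR in the same gene, DDX6 IP over input, for the 37 members tested. Large points are fitted values with their SE, crosses and plus signs the 2 IP libraries; RPL37 and RPL41 lie above 3 and RPL13A, at -0.77, is the only member called below 0.

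**Figure D4:**
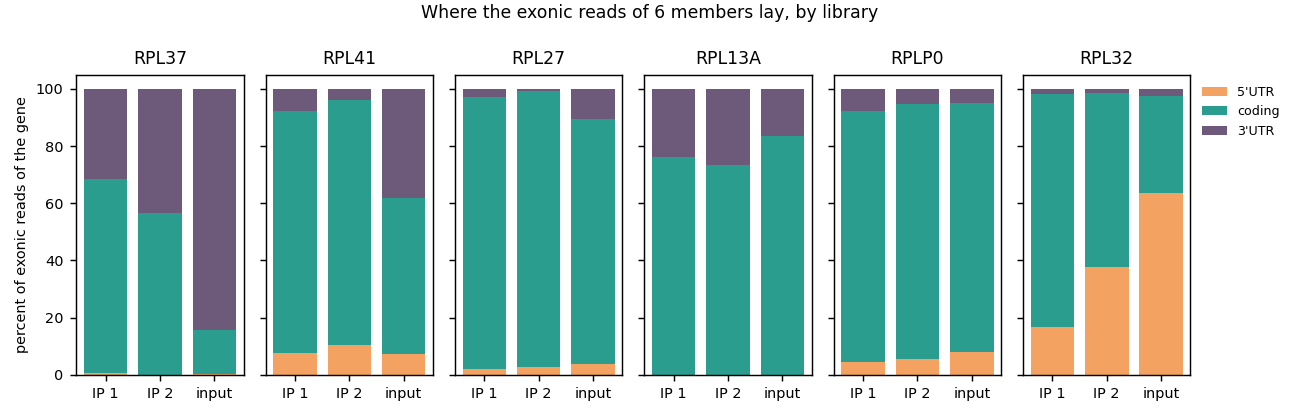
Share of mRNA exonic reads in 5′UTR, coding sequence and 3′UTR, in percent, for 6 members, with the 2 IP libraries to the left of the input in each panel. The 3′UTR part of RPL37 is 31.6% and 43.3% in the IP libraries and 84.2% in the input, and the 5′UTR part of RPL32 is 16.8% and 37.6% in the IP libraries and 63.6% in the input.

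The 5′UTR was compared with the coding sequence in the same way in 30 members. None was higher, by edgeR, by DESeq2 or at an unadjusted p under 0.05 (0 members in each). By edgeR, RPL27A (-2.48, adjusted p 0.012) and RPL32 (-2.42, adjusted p 0.015), whose 5′UTRs overlap small nucleolar RNAs, were lower. Of all 1971 genes, 0.761% were higher and 3.45% lower. RPL23A and RPL3, not called here, also had peak lines annotated to small nucleolar RNAs. The SE of these differences ran from 0.62 to 0.89, and the 28 members not called had differences from -1.21 to 1.36.

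The authors' peak lists gave each peak a log2 fold over input and a -log10 p, which are their own values. The peak caller is not given in the sources used here, and these folds were not put on the scale of the fits above. All 44 members had peak lines in both lists, 763 in IP replicate 1 and 479 in IP replicate 2, of which 85.8% and 83.5% were coding. The median log2 fold of the members' lines was 1.13 and 0.65, against 1.77 and 2.29 over all lines of the same lists. At a log2 fold of at least 3 and a -log10 p of at least 3, IP replicate 1 had 11 lines, all in RPL37, and IP replicate 2 had 1 line, in RPL36, with no line shared. In those lists 26.8% and 32.3% of all genes with a peak line had one past that rule. None of the 1587 peaks in the authors' reproducible list lay on a member.

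The RPL37 peaks formed 2 runs on the minus strand of chromosome 5 (hg19). One run of 58 bases of coding sequence, 40834651 to 40834708, had 7 lines with log2 folds from 3.09 to 3.71, and another of 39 bases, 40835285 to 40835323, had 4 lines across the end of the 5′UTR and the start of the coding sequence. IP replicate 2 had lines in both places, with log2 folds from 1.93 to 2.17, under the threshold. The count tables placed 4 and 0 reads in the RPL37 5′UTR in the IP libraries and 1 in the input. The RPL36 line covered 35 bases of its 5′UTR on the plus strand of chromosome 19, 5690304 to 5690338 in hg19, with a log2 fold of 3.01 in IP replicate 2 and of 2.57 to 2.65 in IP replicate 1. An overlapping long noncoding RNA is annotated there too.

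The rule was then eased to a log2 fold of at least 1, with the -log10 p still at least 3. Under it 39 members had a passing line in IP replicate 1 and 31 in IP replicate 2. Of all genes with a peak line, 43.7% and 44.5% had one. A passing line overlapped between the lists in 29 members, which was 43.9% of the 437 lines of IP replicate 1 and 85.1% of the 148 lines of IP replicate 2. Over all genes with lines in both lists the share with an overlapping passing line was 29.4%, and over all passing lines 25.9% and 60.05% overlapped. RPL27, RPL7 and RPL7A had no passing line in either list. RPL7 had a highest log2 fold of 0.81 in IP replicate 1 and -0.92 in IP replicate 2. RPL17 had a median of 2.21 and 2.32 over its 19 and 9 lines, where 14 and 7 of them were shared with another annotated gene. While its count row held 5′UTR reads, 14 and 6 of its peak lines were coding. RPL36A had 11 and 8 lines, 10 and 7 of them shared with another annotated gene, with medians of 1.40 and 0.59.

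**Figure D5:**
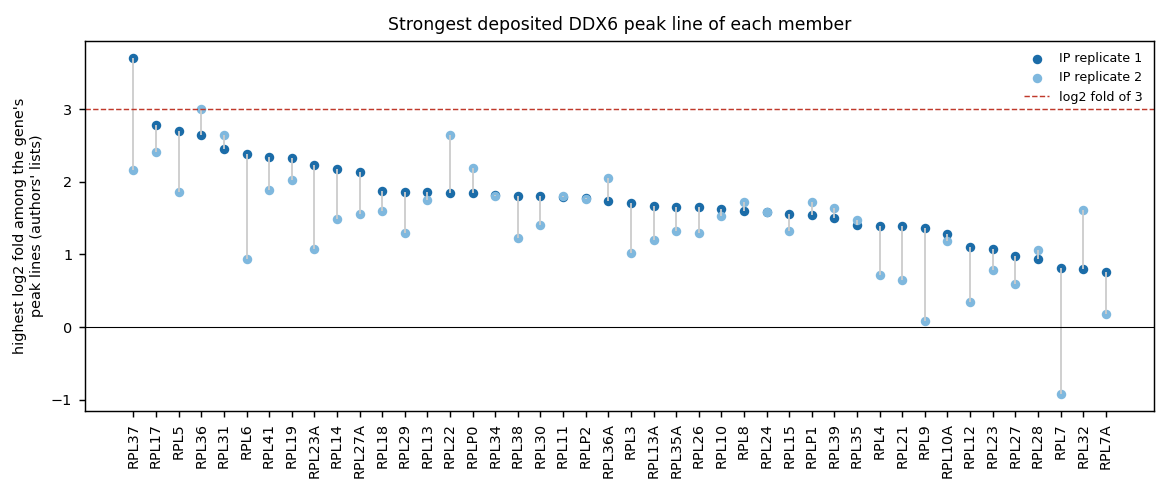
Highest log2 fold over input among each member's lines in the authors' peak lists of the 2 IP libraries, for all 44 members. The dashed line marks a log2 fold of 3, reached by RPL37 at 3.71 in IP replicate 1 and by RPL36 at 3.01 in IP replicate 2.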

How the data were processed

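The deposited read counts per gene and region (5′UTR, coding sequence, 3′UTR, introns, noncoding exons) were whole numbers and were used as deposited. The authors used UMI-tools, cutadapt, STAR and SAMtools with hg19, per the submitters' processing notes. Not given in the sources used here are versions, the counting tool, its handling of strand and overlapping genes, and the peak caller. The authors' deposited peak lists give −log10 p (at most 400) and log2 fold over input per peak. Ensembl identifiers matched a symbol for 28576 of 29754.

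Counts were tested with edgeR 4.0.16 (R 4.3.3) by quasi-likelihood, TMM scaling and Benjamini-Hochberg adjustment over each whole table, keeping features that reached 10 reads in 2 or more of the 3 libraries. Log2 folds per library use a prior count of 2. Only 1 residual degree of freedom exists: the lone input is assumed to vary like the IP libraries (gene-fit biological coefficient of variation 16.5%). The scripts were tested on simulated data. DESeq2 1.42.0, other scalings and filters, and each IP library left out were alternatives. Named genes were the 6 highest and 6 lowest gene folds, the 3 highest and 3 lowest per region, the 3 with most input reads, those with significant peaks, and the listed roles. Members and lists were chosen with earlier results of these data known. Intron rows were taken only as a count.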

Additional observations from a re-analysis of the deposited data

How the results depend on the processing

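The gene-level lower calls (20) and higher calls (0) became 2 and 19 with library size alone, 9 and 15 with intronic reads included, 12 lower with DESeq2 and 12 lower with no filter beyond 1 read; the median (-0.59) became 0.63, 0.27 (intronic, all genes 0.02), -0.67 (at least 30 reads) and -0.56 (coding and 3′UTR reads only), and ran from -0.66 to -0.55 with one IP library left out. Of all genes in this fit, 1.36% were lower and 67.3% higher with library size alone, and 18.6% and 19.6% with intronic reads included. Single members called in this fit or in the alternative changed sign with library size alone (30 members) and with intronic reads included (18). Sign changes of members called in neither are not in these counts. In the 5′UTR, higher and lower calls (3 and 6) were 10 and 3 with library size alone, 1 and 2 with DESeq2, 1 higher with no filter, and 1 and 11 on exonic rows only; the median (-0.19) was 0.45 with library size alone, 0.14 with at least 30 reads and -0.93 on exonic rows only, and 0.29 without IP replicate 1 against -0.37 without IP replicate 2. In coding sequence, calls (4 and 3) were 25 and 0 with library size alone, 2 and 0 with DESeq2, 1 and 5 with no filter, 8 and 0 with at least 30 reads, and 1 and 15 on exonic rows only; the median (0.18) was 0.82, 0.20 (RLE), 0.21 (DESeq2), -0.13, 0.38 and -0.55, and 0.21 to 0.24 with one IP library left out. In the 3′UTR, calls (1 and 18) were 5 and 6 with library size alone, 0 and 6 with DESeq2, 0 higher with no filter, 3 and 11 with at least 30 reads and 0 and 27 on exonic rows only; the median (-0.90) was -0.26 with library size alone, -0.50 with at least 30 reads and -1.64 on exonic rows only, and -1.04 to -0.76 with one IP library left out. For coding minus 3′UTR, calls (21 and 1) were 7 and 0 with DESeq2 and 13 higher with at least 30 reads; the median (1.07) was 0.84 with at least 30 reads, as over all genes (0.84, with 43.3% called higher), and 1.01 to 1.05 with one IP library left out, and for 5′UTR minus coding the median (-0.42) was 0.25 without IP replicate 1 and -0.57 without IP replicate 2. Members with a peak numbered 39, 31 and, shared by both lists, 29 at a log2 fold of at least 1, against 1, 1 and 0. The -log10 p was at least 3 in both. The IP share of exonic reads over that of the input (0.70) was 1.48 with all counted reads and 0.56 with protein-coding exonic reads as the total. The cause of these changes was not tested. Exonic rows only was chosen after seeing the data. With library size alone, 53.6% of all 5′UTRs, 78.6% of all coding regions and 46.2% of all 3′UTRs were higher. Calls without one IP library could not be made, since no residual degree of freedom remains. No paired analysis was possible because there was only 1 input library for the 2 IP libraries.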
